A study of Mus musculus with 12 samples.

Results

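Genes of the machinery that carries out protein synthesis were followed through mouse skin under an ageing treatment and a plant extract: translation initiation factors (Eif), elongation factors (Eef), the release factor Etf1 and the aminoacyl-tRNA synthetases. They were taken by symbol, as every gene whose symbol starts with Eif and a digit, Eef or Etf1, or is a synthetase symbol such as Rars or Rars2, or Eprs. The set was chosen with earlier results of these data known. The deposited tables held 69 such genes among 7902. RefSeq names 108 protein-coding mouse genes by the same spelling, and the remaining ones, among them Eif4ebp1, Eif2ak3 and Eif2ak4, were not analysed here. Of the 69, 68 passed the filter on low counts. The one that did not was Eef2k, the kinase of elongation factor eEF2, which had a count only in Model library 3 and was listed at 0 in the other 11 libraries.

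The study sequenced RNA from skin of Mus musculus in 3 groups with 4 libraries each. Ctrl was control skin. Model was skin aged with D-galactose, a sugar given to speed up glycation and oxidative damage, together with ultraviolet A and B light. M+NSPCC1 was, by its title and the series' design, skin from the same ageing model treated with the grape seed extract NSPCC1, so both treated groups share D-galactose and ultraviolet exposure. Strain, sex, age, doses, times and the route of the extract were not given in the labels, and nothing says that the 4 libraries of a group came from separate mice, so p-values measure only the spread between these libraries, which may be technical.

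Protein synthesis begins when eIF2, loaded with GTP and initiator tRNA, joins the small ribosomal subunit with eIF3, eIF1 and eIF1A, and when eIF4F (the cap-binding eIF4E, the helicase eIF4A and the scaffold eIF4G) brings in the mRNA. eIF2B reloads eIF2 with GTP, and kinases that phosphorylate eIF2 alpha block that step under stress. Elongation factor eEF1A then delivers the aminoacyl-tRNAs that the synthetases charge, eEF2 moves the ribosome along, and eRF1 (Etf1) releases the finished chain. The factors are in demand wherever cells divide and make protein quickly, as in the growing hair follicle.

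The tables summed to between 9717338 and 10952623 estimated counts per library, and the depth of the libraries relative to each other, taken from the ratio of counts to FPKM, lay between 0.967 and 1.03. The tables are a selection: they hold 35.9% of RefSeq's protein-coding genes, and most listed genes differed between Ctrl and the other groups. The rule of that selection is not given. If rows were kept for differing from Ctrl, passing a test against Ctrl was partly fixed in advance. The adjusted p-values of those tests would then not control error. Tissue markers moved widely with the ageing model. All 18 skeletal muscle markers fell, from between 8.501% and 9.001% of the summed count in Ctrl to between 0.497% and 1.79% in Model, and all 3 fibroblast, 3 endothelial and 4 immune markers fell too. All 12 hair shaft and inner root sheath markers rose, from between 0.000746% and 0.0251% of the summed count in Ctrl, where at most 6 of them were at 0 in a library, to between 4.06% and 6.23% in Model, and all 8 cell division markers and all 4 melanocyte markers rose. In M+NSPCC1 the hair markers took 2.82% in library 1 and between 4.54% and 5.04% in the others. None of the 12 differed between M+NSPCC1 and Model at an adjusted p under 0.05. Of 3 keratinocyte markers 2 rose and 1 fell in Model against Ctrl. Within the Model group, library 3 had the lowest hair and cell division shares and the highest muscle share. In bulk skin, more cells of a type and more RNA per cell cannot be told apart.

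To show what the genes share in sequence, windows from 250 bases before to 50 after each RefSeq transcription start (GRCm38.p6) were searched on both strands for 4 motifs. Windows were at hand for 54 of the members, 67 windows in all. The ETS site CTTCCGG was in 34.3% of the members' windows against 8.86% of all 32851 windows, and the E-box CACGTG in 23.9% against 7.15%. The ATF4 composite element TGATGNAA, bound in amino acid shortage, was in 7.46% against 3.97%, in Eef2k, Eif2s3x, Gars, Tars and Yars. The cAMP response element TGACGTCA was in 1.49% against 1.79%, in Eef2 alone. No match of one motif overlapped a match of another in a window. The stretches below run up to the start or to 60 bases past the motif, are read 5′ to 3′ on the gene's strand, and show the motif in capitals. Tars (chr15:11399659-11399733, minus strand) and Gars (chr6:55037911-55038000, plus strand) are shown as synthetases with an ATF4 element upstream of the start, on the opposite strand, so that the capitals read TTNCATCA. Eef2 (chr10:81176528-81176630, plus strand), Eif4a1 (chr11:69672547-69672672, minus strand) and Eif4e (chr3:138527144-138527267, plus strand) are shown for the E-box in an elongation factor and in eIF4F subunits. The Eif4e stretch lies before the second of its 2 RefSeq starts, inside the gene, which begins at 138526191, and the other stretches lie before the outer start. Eif3d (chr15:77970828-77970954, minus strand) is shown for the ETS site, which also lies in Eif3c, Eif3g, Eif3l and Eif3m.
Tars: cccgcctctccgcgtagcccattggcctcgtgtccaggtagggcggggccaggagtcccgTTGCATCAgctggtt
Gars: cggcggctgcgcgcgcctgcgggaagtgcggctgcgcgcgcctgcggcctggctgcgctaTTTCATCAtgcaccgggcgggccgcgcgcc
Eef2: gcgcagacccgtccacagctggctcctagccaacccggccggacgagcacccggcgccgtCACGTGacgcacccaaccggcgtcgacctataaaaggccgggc
Eif4a1: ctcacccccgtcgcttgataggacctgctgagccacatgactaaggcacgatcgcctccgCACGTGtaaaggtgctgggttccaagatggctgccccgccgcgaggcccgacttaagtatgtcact
Eif4e: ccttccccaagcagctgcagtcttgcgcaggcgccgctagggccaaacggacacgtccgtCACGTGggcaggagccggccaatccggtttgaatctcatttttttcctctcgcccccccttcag
Eif3d: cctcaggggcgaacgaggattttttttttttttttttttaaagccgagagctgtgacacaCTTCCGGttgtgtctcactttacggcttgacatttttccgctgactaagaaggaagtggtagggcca

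In the ageing model, described next, most genes with a motif rose, as did 56 of the 68 members tested. Over all genes tested, 49.1% rose and 41.4% fell. Of the 5 genes with an ATF4 element, 4 rose and Eef2k was not tested. Of the 14 with an E-box, 12 rose, Eif1b fell and Eef2k was not tested. Of the 20 with an ETS site, 16 rose, Eif1b and Mars fell, and Eif4e2 and Kars did not pass. Eef2, the 1 gene with a cAMP response element, rose. A match is a description of letters in a window and shows no binding.

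The first comparison, Model against Ctrl, asks what the ageing model did to these genes. Of the 68 tested, 56 rose and 7 fell at an adjusted p under 0.05 (edgeR quasi-likelihood test, adjusted by Benjamini-Hochberg over all genes), and 5 did not pass. Across all 7638 genes tested, 49.1% rose and 41.4% fell, 90.5% in either direction. Because the rule that selected these genes is not known, passing may have been partly fixed in advance. The rises were small: the 56 ranged from 0.22 to 1.195 on the log2 scale with a median of 0.59, whereas the median over all genes that rose was 0.93. Every Model library lay above every Ctrl library for 51 members, and for 43.2% of all genes tested, and every Model library lay below every Ctrl library for 7 members, and for 39.8% of all genes. The members that fell were Mars, Eef1a2, Eif2ak2, Eif1, Eif4a2, Eif4e3 and Eif1b. The median log2 fold change over the 68 was 0.54, beside 0.26 over all genes. That background moves with the scaling (0.08 with DESeq2 size factors and 0.43 with the depth of the whole libraries, against 0.26 with TMM factors), so medians of gene groups below are also given after subtracting it. With DESeq2 in place of edgeR, 49 members rose (41.4% of all genes did) and 7 fell (42.6%). No member that passed changed sign under any of these scalings.

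**Figure D1:**
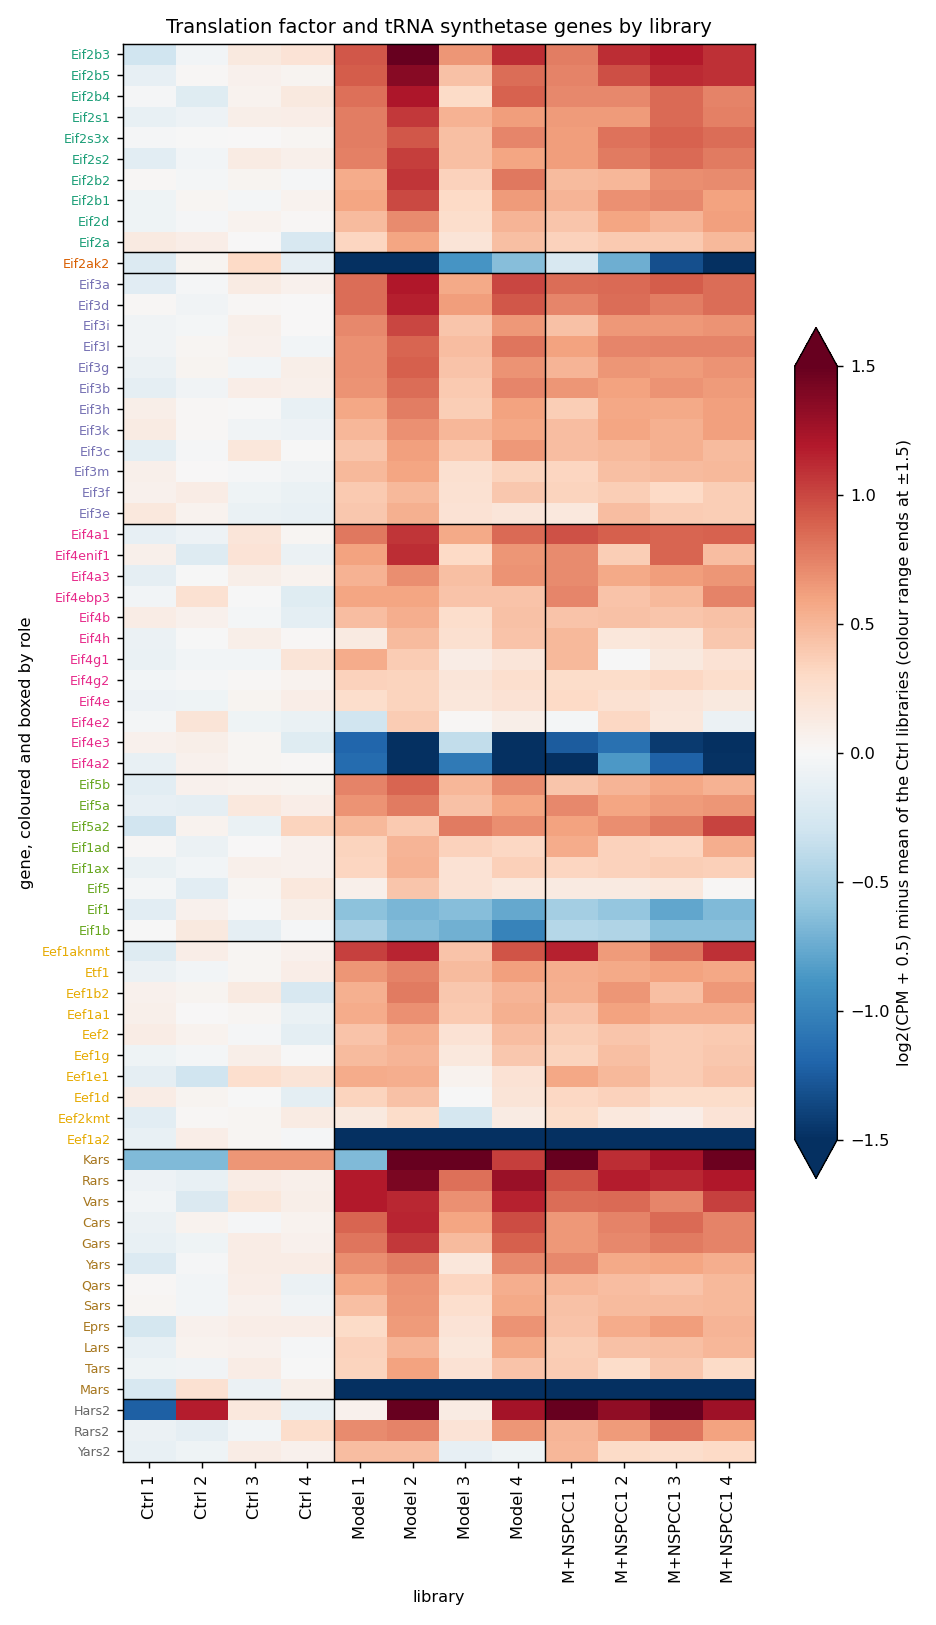
Level of each of the 68 tested genes (rows, boxed and coloured by role) in each of the 12 libraries (columns), as log2(CPM + 0.5) minus the mean of the Ctrl libraries, with red higher and blue lower and the colours ending at ±1.5. Red rows run through every role but that of the eIF2 alpha kinase, Model library 2 is the deepest red and Model library 3 the palest of its group, and Mars, Eef1a2, Eif4a2, Eif4e3 and Eif2ak2 stand out in blue.

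Together the members took 2.96% ± 0.0554 of the summed count in Ctrl, 4.40% ± 0.349 in Model and 4.51% ± 0.0253 in M+NSPCC1 (SD, n = 4 each). The Model group was the widest. Its library 3 had the lowest share, 3.91%, and its library 2 the highest, 4.73%, while both stood above all Ctrl libraries, which reached 3.03%. This order ran through most members: Model library 2 was the highest of its group for 48 of the 56 risen genes (85.7%) and library 3 the lowest for 51 (91.1%). Over all 3753 genes that rose the same libraries held these places for 52.1% and 68.7%. Library 3 was also the Model library with the lowest hair and cell division shares, and its part in the members' order was not tested. The counts of risen and fallen members without library 3 were 56 and 7, as with it.

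**Figure D2:**
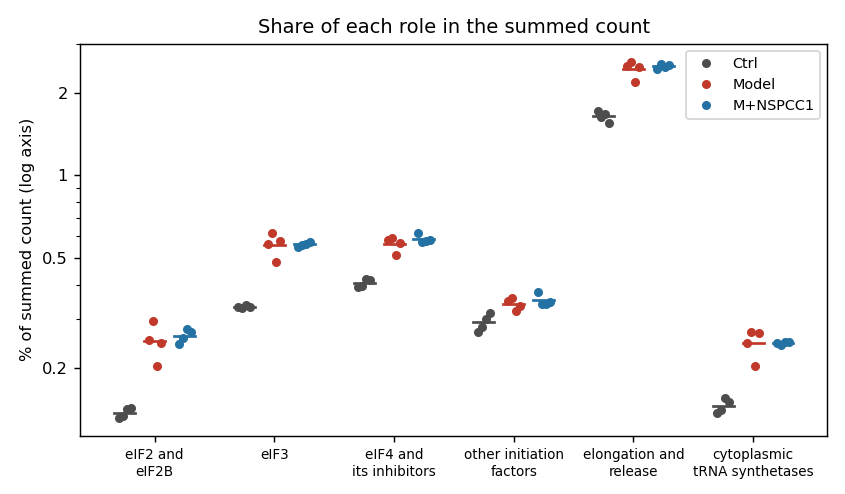
Share of the summed count (%, log axis) taken by 6 roles in each library (points) with the group mean (bar), for Ctrl, Model and M+NSPCC1. The role with the largest share, elongation and release, stood at 1.64% in Ctrl and 2.43% in Model, and M+NSPCC1 overlapped Model in every role shown.

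All 10 genes tested in the eIF2 and eIF2B role, which also holds Eif2a and Eif2d, rose, out of 11 in RefSeq. The median of their log2 fold changes was 0.73, or 0.47 above the median of all genes. For all 10, every Model library was above every Ctrl library. The 3 subunits of eIF2, the carrier of initiator tRNA, rose by similar amounts. Eif2s1, which encodes the alpha subunit that stress kinases phosphorylate, had 136.3, 139.2, 156.5 and 156.9 CPM (counts scaled to a common library size with TMM factors) in the Ctrl libraries and 251.1, 307.5, 211.1 and 226.5 in the Model libraries. Its libraries did not overlap, with Model 2 highest and Model 3 lowest, and it rose by 0.76 ± 0.11 on the log2 scale (SE, adjusted p = 7e-05). Eif2s3x, the gamma subunit that binds the tRNA and GTP and the copy on the X chromosome, stood between 435.5 and 450.3 CPM in Ctrl and at 751.6, 842.9, 603.8 and 733.5 in Model (0.73 ± 0.10, adjusted p = 3.48e-05). Eif2s2, the beta subunit, rose by 0.72. Of the exchange factor eIF2B, the catalytic subunit Eif2b5 rose by 0.93, its partner Eif2b3 by 1.08, and the regulatory subunits Eif2b1, Eif2b2 and Eif2b4 by 0.65, 0.72 and 0.84. Eif2a and Eif2d, which deliver tRNA by other routes and are not parts of eIF2, had the lowest values of the group, 0.39 and 0.50.

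The kinase that acts on eIF2 went the other way. Eif2ak2, the double-stranded RNA sensor PKR and the only one of the eIF2 alpha kinases tested, was at a low level, 10.51, 12.48, 15.03 and 11.01 CPM in Ctrl and 3.788, 2.41, 6.35 and 7.642 in Model. The groups did not overlap, and the log2 fold change was -1.28 ± 0.39 (SE, adjusted p = 0.00806). Its mean in FPKM, which allows for transcript length, was 1.59 in Ctrl, below that of any eIF2 or eIF2B gene, where the range was 15.6 (Eif2b3) to 77.7 (Eif2s2). Immune markers fell in the same comparison, from between 0.0400% and 0.0612% of the summed count in Ctrl to between 0.00972% and 0.0347% in Model, and their part in the fall of Eif2ak2 was not tested.

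All 12 eIF3 genes tested rose, out of 14 in RefSeq. eIF3 is the large complex that holds the small ribosomal subunit and the mRNA together, and the log2 fold changes of its subunits ran from 0.34 (Eif3e) to 0.92 (Eif3a), with a median of 0.63, or 0.37 above that of all genes. Eif3d, a subunit that can itself bind the cap of some mRNAs, stood at 210.9, 201.1, 211.0 and 208.4 CPM in Ctrl and at 373.3, 466.9, 320.2 and 397.7 in Model. That is a rise of 0.91 ± 0.10 on the log2 scale (SE, adjusted p = 6.41e-06), with the lowest Model library well clear of the highest Ctrl library. Eif3l, a subunit of the outer part of the complex, lay between 211.7 and 229.0 CPM in Ctrl and at 353.1, 403.2, 302.2 and 381.6 in Model (0.72 ± 0.09, adjusted p = 1.49e-05). The scaffold subunits Eif3a, Eif3b and Eif3c rose by 0.92, 0.67 and 0.52. Eif3i and Eif3g, which sit with Eif3b near the mRNA path, rose by 0.72 and 0.68, and Eif3h, Eif3k, Eif3m and Eif3f by 0.59, 0.57, 0.42 and 0.38. In Ctrl the mean FPKM of the subunits ran from 43.6 (Eif3a) to 220.5 (Eif3k). Eif3e was the 1 subunit that did not pass with DESeq2 size factors or with DESeq2 (0.16, adjusted p = 0.114).

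The eIF4 group split. Of 12 tested, 9 rose, 2 fell and Eif4e2 did not pass, and the median of 0.32 was only 0.06 above that of all genes (0.039 without Ctrl library 1, 0.104 without Ctrl library 4 and 0.095 without Model library 3). Eif4a1, the main helicase of eIF4F, which unwinds the 5′ end of mRNAs, had 794.3, 819.5, 979.3 and 882.9 CPM in Ctrl and 1500.0, 1824.0, 1289.0 and 1560.0 in Model. It rose by 0.83 ± 0.11 (SE, adjusted p = 2.66e-05), with no overlap. Eif4a3, the related helicase of the exon junction complex, rose by 0.59 ± 0.08 (adjusted p = 2.14e-05), from between 115.9 and 135.4 CPM to 183.1, 207.1, 175.1 and 203.4. Eif4a2, the third member of that family, fell by 1.37 ± 0.20 (adjusted p = 5.57e-05), from 409.6, 462.7, 454.4 and 450.9 CPM to 199.6, 140.5, 213.4 and 133.4.

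Among the cap-binding proteins, only the fall of Eif4e3 stood clear of the median of all genes. Eif4e, the canonical cap binder, rose by only 0.25 ± 0.07 (SE, adjusted p = 0.00373), from 157.7, 159.4, 171.8 and 178.8 CPM in Ctrl to 200.8, 210.2, 187.1 and 194.4 in Model. The groups were close but did not overlap, the rise was close to the median of all genes, and it did not pass with DESeq2 size factors (0.08, adjusted p = 0.264) or DESeq2 (0.08, adjusted p = 0.201). Eif4e3, a relative that binds the cap in an unusual way, fell by 1.15 ± 0.26 (adjusted p = 0.00137), from 89.25, 90.9, 87.7 and 75.66 CPM to 37.21, 26.13, 65.98 and 25.54, with Model library 3 near to Ctrl. Eif4e2, which binds the cap without starting translation, differed by 0.06 ± 0.14 in sum (adjusted p = 0.689), with a 95% interval from -0.25 to 0.37. In FPKM its mean was 21.3 in Ctrl and 32.2 in Model, and it passed in every limma setting. The scaffolds Eif4g1 and Eif4g2 rose by 0.31 and 0.28, the helicase partners Eif4b and Eif4h by 0.43 and 0.33, the shuttling protein Eif4enif1 by 0.70, and Eif4ebp3, the inhibitor of eIF4E in these tables, by 0.52. Eif4g1 did not pass without Ctrl library 1, 2 or 3 or without Model library 1 (0.22 to 0.30, adjusted p from 0.0681 to 0.107). With DESeq2, Eif4g1 (0.14, adjusted p = 0.315) and Eif4h (0.16, adjusted p = 0.124) did not pass, and with DESeq2 size factors in edgeR neither they nor Eif4g2 did.

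Among the other initiation factors 6 rose and 2 fell, with a median of 0.37, or 0.11 above that of all genes. Eif5b, the GTPase that joins the ribosomal subunits, stood at 115.4, 134.6, 133.0 and 131.7 CPM in Ctrl and 215.1, 235.2, 182.3 and 210.8 in Model, a rise of 0.71 ± 0.08 (SE, adjusted p = 1.18e-05) without overlap. Eif5a, whose product carries hypusine and helps ribosomes past stalling sequences, rose by 0.62 ± 0.10 (adjusted p = 0.000106), from between 753.5 and 929.9 CPM to between 1124.0 and 1423.0. Its rarer relative Eif5a2 rose by 0.60, Eif1ax, the X-linked gene of eIF1A itself, by 0.36, and Eif1ad, which encodes a protein with an eIF1A-like domain, by 0.38. Eif1 and Eif1b, which encode the 2 forms of the factor that guards choice of the start codon, fell together. Eif1 went from 1151.0, 1337.0, 1280.0 and 1363.0 CPM to 838.5, 796.0, 819.2 and 751.9, a change of -0.68 ± 0.08 (adjusted p = 1.77e-05). Eif1b went from 74.21, 82.73, 67.95 and 73.61 CPM to 52.93, 47.17, 45.04 and 37.0, a change of -0.71 ± 0.11 (adjusted p = 0.000101). For both, each Model library lay below each Ctrl library. Eif5, the partner that makes eIF2 hydrolyse GTP, rose by 0.22 (adjusted p = 0.0377), a value that did not pass without Ctrl library 1, 2 or 3 or without Model library 2 (0.17 to 0.23, adjusted p from 0.0534 to 0.109) or with DESeq2 (0.05, adjusted p = 0.589).

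**Figure D3:**
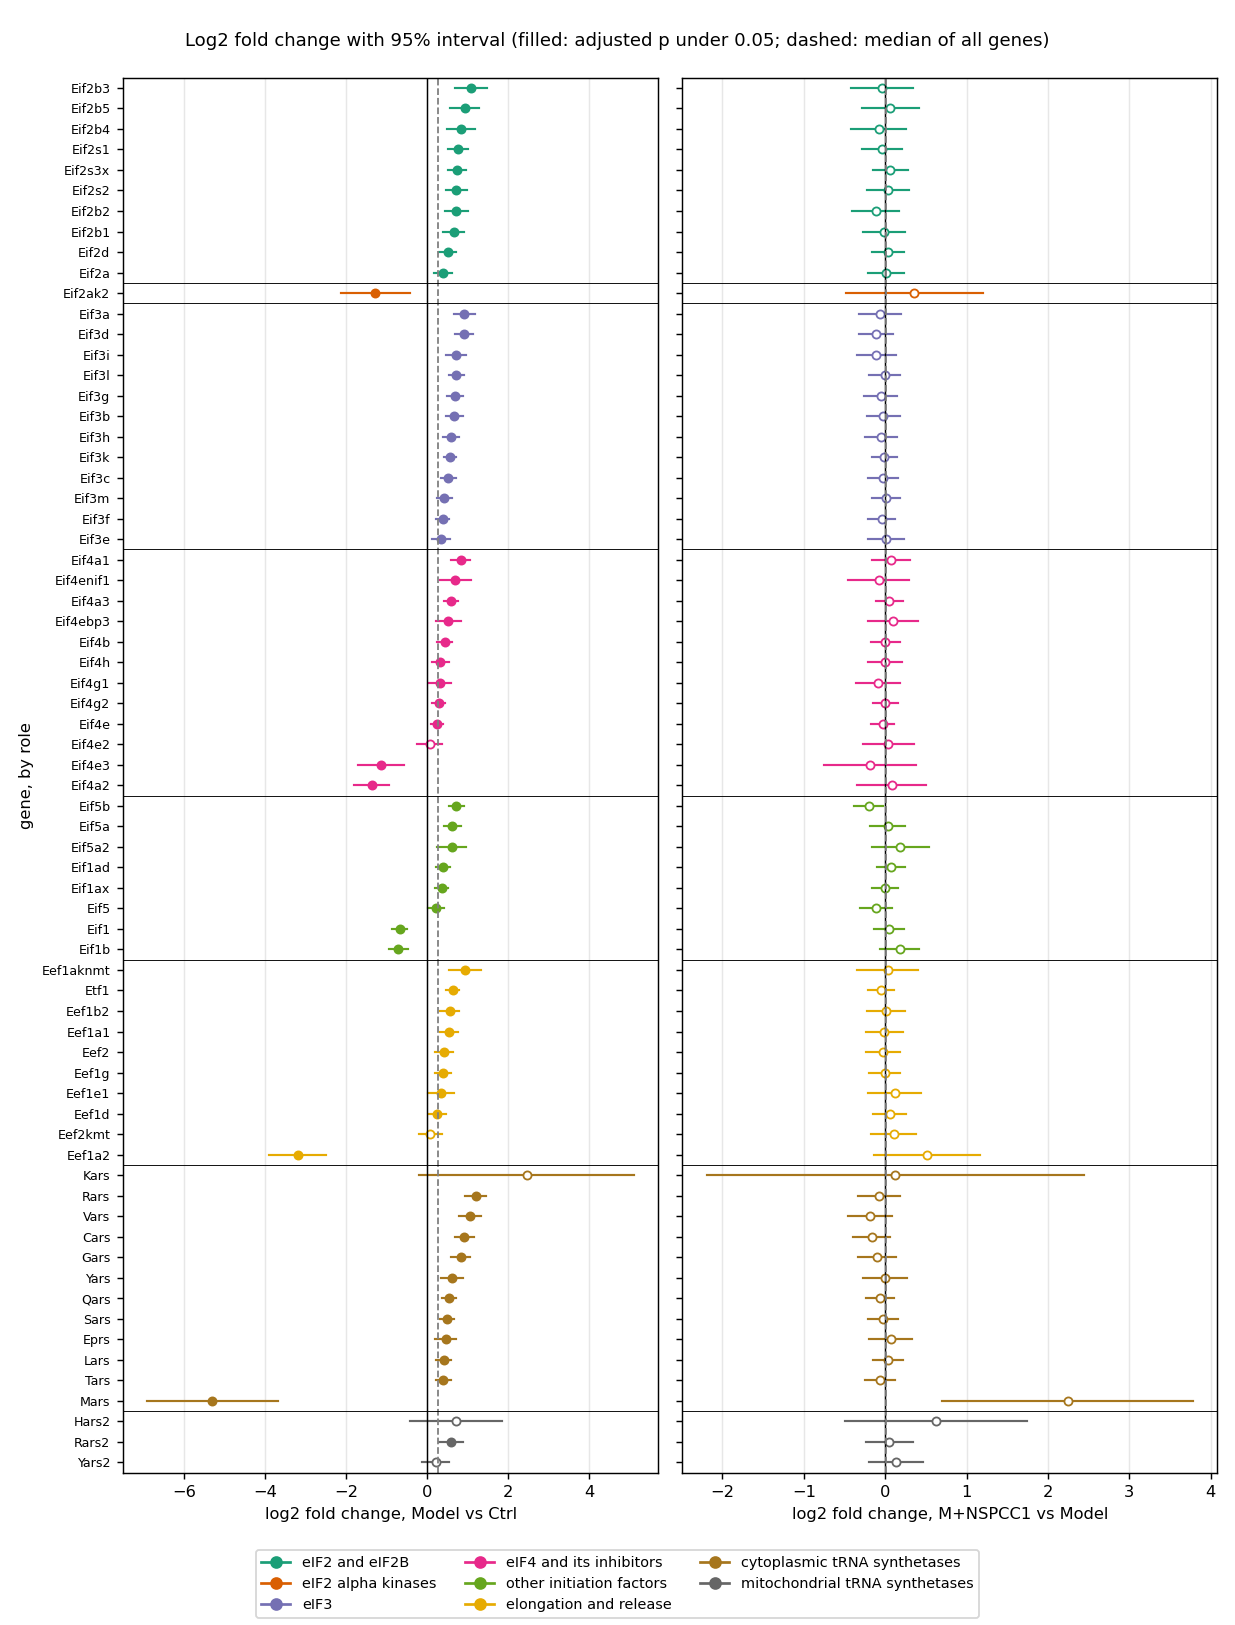
Log2 fold change of each tested gene with its 95% interval, in Model against Ctrl (left) and M+NSPCC1 against Model (right), by role, with filled points for an adjusted p under 0.05 and the dashed line at the median of all genes. On the left all eIF2, eIF2B and eIF3 points lie right of 0 and 7 filled points lie left of it, and on the right no point is filled.

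For elongation and release, 8 of 10 rose, Eef1a2 fell and Eef2kmt did not pass, with a median of 0.40, or 0.15 above that of all genes. Eef1a1, the ubiquitous carrier of aminoacyl-tRNA, was the most abundant member, at 0.999% ± 0.0465 of the summed count in Ctrl and 1.60% ± 0.113 in Model (SD, n = 4 each). Its level was 11300, 10750, 10970 and 9999 CPM in Ctrl and 15780, 17320, 14050 and 15610 in Model, a rise of 0.54 ± 0.10 (SE, adjusted p = 0.000416) with no overlap. Eef2, the translocase, rose by 0.41 ± 0.10 (adjusted p = 0.00185), from 3825, 3685, 3515 and 3194 CPM to 4766, 5189, 4107 and 4869. Etf1, the release factor that reads stop codons, rose by 0.63 ± 0.07 (adjusted p = 9.71e-06), from between 284.5 and 324.7 CPM to 478.5, 508.0, 420.6 and 463.5. The genes of the eEF1B exchange complex, Eef1b2, Eef1g and Eef1d, rose by 0.56, 0.39 and 0.25, Eef1aknmt, which methylates eEF1A, by 0.93, and Eef1e1, a scaffold protein of the synthetase complex, by 0.34. The rises of Eef1d and Eef1e1 were near the threshold, and neither passed with DESeq2 (0.08, adjusted p = 0.408, and 0.17, adjusted p = 0.301). Eef1d did not pass without Ctrl library 4 or Model library 1 (0.20 and 0.22, adjusted p from 0.0627 to 0.0738). Eef1e1 did not pass without Ctrl library 1 or 2, Model library 1 or 2, or any 1 of the M+NSPCC1 libraries, which enter through the shared spread (0.25 to 0.34, adjusted p from 0.0511 to 0.129).

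Eef1a2 replaces Eef1a1 in mature muscle and neurons, and it fell by 3.20 ± 0.32 on the log2 scale (SE, adjusted p = 3.51e-06). Its level was 840.0, 970.5, 926.8 and 894.6 CPM in Ctrl, 120.9, 52.18, 158.6 and 64.03 in Model, and 171.1, 155.7, 105.3 and 133.3 in M+NSPCC1. The skeletal muscle markers moved beside it: all 18 fell, with a median of -3.23, and none was at 0 in any library. Their summed share was lowest in Model library 2 and highest of the Model group in library 3, the same libraries in which Eef1a2 was lowest and highest. What muscle tissue in the samples contributes to the fall of Eef1a2 was not tested.

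**Figure D4:**
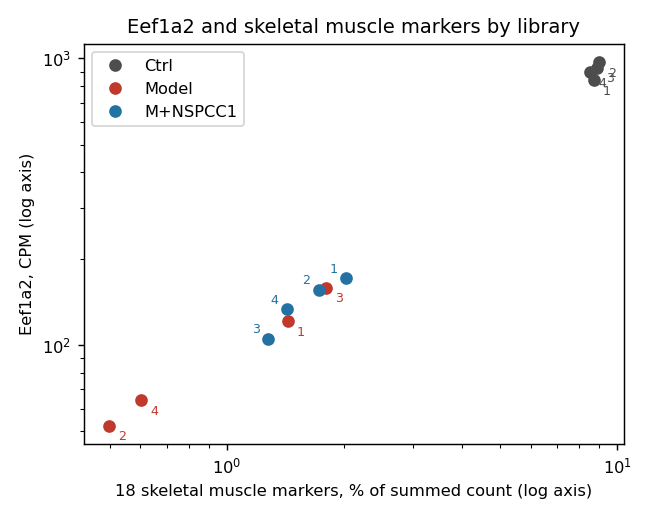
CPM of Eef1a2 (log axis) against the share of the summed count taken by 18 skeletal muscle markers (%, log axis), 1 point per library with its replicate number, coloured by group. The Ctrl libraries sit together at the upper right, and Model libraries 2 and 4 hold the lowest values of both.

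**Figure D5:**
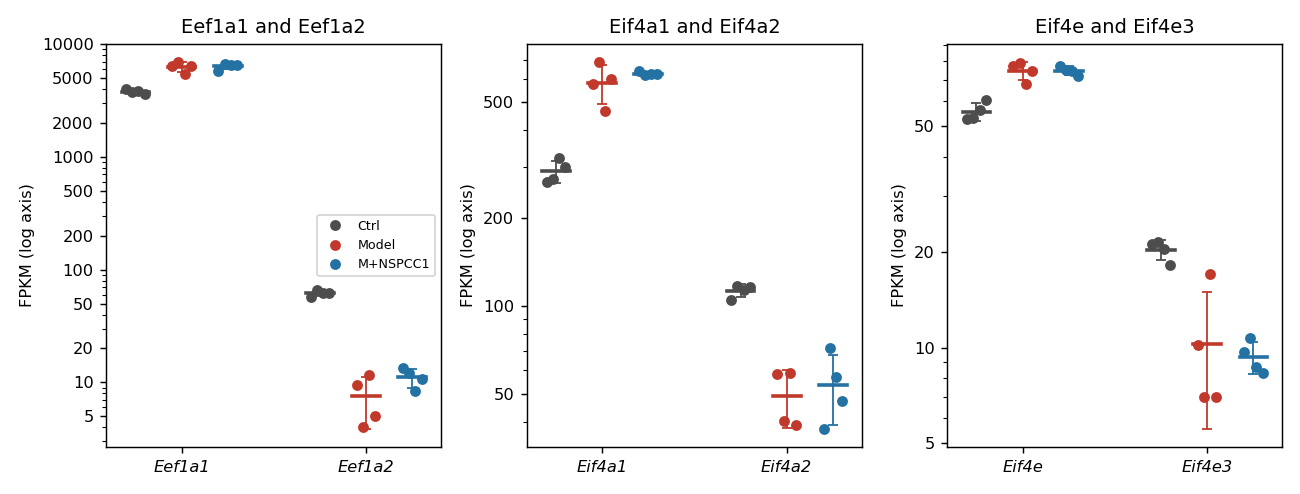
FPKM (log axis) of 3 pairs of related genes in each library (points), with the group mean (bar) and SD (whiskers), for Ctrl, Model and M+NSPCC1. In each pair the first gene was higher and the second lower in both treated groups than in Ctrl.

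Read per length, 3 pairs of relatives drew apart in the ageing model. These pairs were singled out because their members had moved in opposite directions, so their ratios are given without a test. The rise of Eif4e was close to the median of all genes and did not pass with DESeq2 or its size factors. Eef1a1 had between 58.0 and 70.2 times the FPKM of Eef1a2 in the Ctrl libraries, 684.5, 1724, 460.1 and 1268 times in the Model libraries, and between 436.5 and 783.9 times in M+NSPCC1. Eif4a1 had between 2.33 and 2.82 times the FPKM of Eif4a2 in Ctrl, 9.89, 17.0, 7.93 and 15.4 times in Model, and between 8.65 and 16.8 times in M+NSPCC1. Eif4e had between 2.46 and 3.31 times the FPKM of Eif4e3 in Ctrl, 7.58, 11.3, 3.97 and 10.7 times in Model, and between 7.01 and 8.65 times in M+NSPCC1. In all 3 pairs Ctrl did not overlap either treated group, and Model library 3 had the lowest Model ratio. The estimated counts of 5 of these 6 genes, all but Eef1a2, were not whole numbers, so their levels depend on how the authors' estimation divided reads that fit several sequences.

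Of the 12 cytoplasmic tRNA synthetases tested, out of 18 in RefSeq, 10 rose, Mars fell and Kars did not pass. Their median was 0.57, or 0.31 above that of all genes. Rars, the arginyl-tRNA synthetase, had the largest rise among the members that passed, 1.195 ± 0.119 (SE, adjusted p = 3.43e-06), from 110.8, 108.4, 126.8 and 123.6 CPM in Ctrl to 267.2, 313.4, 207.3 and 287.1 in Model. Vars, the valyl-tRNA synthetase, stood at 72.55, 63.95, 83.52 and 79.33 CPM in Ctrl and at 170.2, 163.9, 119.6 and 167.0 in Model, where library 3 was far below the others (1.05 ± 0.12, adjusted p = 1.16e-05). Cars, the cysteinyl-tRNA synthetase, went from between 79.3 and 87.2 CPM to 154.9, 186.9, 127.5 and 166.9 (0.92 ± 0.10, adjusted p = 8.44e-06). None of these groups overlapped. Gars, one of the few synthetases that serve both cytoplasm and mitochondria, rose by 0.82, and Tars, which shares with it the ATF4 element printed above, by 0.40. Yars, Qars, Sars, Eprs and Lars, for tyrosine, glutamine, serine, glutamate with proline, and leucine, rose by 0.61, 0.53, 0.49, 0.46 and 0.40.

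Mars, the methionyl-tRNA synthetase, was well counted in Ctrl and close to 0 in the treated groups. It was listed as 1 row with 31.19, 43.52, 34.89 and 39.5 CPM in Ctrl, 1.894, 0, 1.587 and 0.2796 in Model, and 7.334, 3.06, 5.739 and 1.687 in M+NSPCC1. Its log2 fold change in Model was -5.30 ± 0.73 (SE, adjusted p = 4.07e-05), and -5.90 without Model library 1. Kars, the lysyl-tRNA synthetase, rests on few reads in every group. It was listed as 1 row with at most 0.756 CPM in Ctrl and 4.634 in Model, and its libraries overlapped (2.46 ± 1.21, adjusted p = 0.0719). It passed without Model library 1 (2.87, adjusted p = 0.0219). The tables list rows by transcript under a gene number with no transcript name, so a single row such as these may stand for 1 transcript of the gene and not its whole output.

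Only 3 mitochondrial synthetases were tested, Rars2, Hars2 and Yars2, out of 17 in RefSeq. 1 rose and 2 did not pass. Their median was 0.59, or 0.34 above that of all genes, and that difference was 0.157 without Ctrl library 1 and 0.161 without Model library 2. Rars2, the mitochondrial arginyl-tRNA synthetase, rose by 0.59 ± 0.13 (SE, adjusted p = 0.00142), from 34.28, 33.14, 35.53 and 44.04 CPM to 59.94, 61.26, 42.27 and 57.88, with Model library 3 within the Ctrl range. Whether its rise differed from that of Rars, its cytoplasmic counterpart, was not tested. Yars2 had 19.58, 20.21, 22.97 and 22.13 CPM in Ctrl and 29.36, 29.38, 19.45 and 20.22 in Model (0.21 ± 0.15, adjusted p = 0.198), with 2 Model libraries at the Ctrl level. Hars2 was scattered in both groups, 1.217 to 8.615 CPM in Ctrl and 3.693 to 11.31 in Model (0.71 ± 0.52, adjusted p = 0.206), and passed without Ctrl library 2 (1.31, adjusted p = 0.028).

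In 2 members the gene sum hides rows whose estimated counts moved against each other, by the edgeR test over single rows. The sums of both were not whole numbers. Their row counts depend on how the authors' estimation divided reads that fit several sequences. Of the 4 rows of Eif4e2, 1 rose from a mean of 0 counts in Ctrl to 178.3 in Model (adjusted p = 3.64e-06), another fell from 36.1 to 0 (adjusted p = 3e-04) and the third fell from 266.4 to 106.1 (-1.49 ± 0.25, adjusted p = 0.000221). The fourth had 168.2 counts in Ctrl and 280.9 in Model and did not pass (0.57 ± 0.26, adjusted p = 0.0509). Eef1d, a subunit of the eEF1B complex that also exists in a long form with another function, had 1 row that fell from 429.4 to 74.0 counts (-2.69 ± 0.44, adjusted p = 0.000166) and 3 that rose, from 1164 to 1654, from 854.3 to 1514 and from 90 to 233. In M+NSPCC1 the falling row of Eef1d had 116.6 counts and the appearing row of Eif4e2 had 179.

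Genes around these factors were described by lists, whose counts stand beside 49.1% of all genes that rose and 41.4% that fell. Of 31 tested genes of tRNA processing and modification, 26 rose and 1 fell, with a median of 0.62. Trmt6, part of a tRNA adenosine methyltransferase, rose by 1.08, the methyltransferase Nsun2 by 0.99 and the pseudouridine synthase Pus7 by 0.81. Of 29 other cytoplasmic translation factors listed, 19 were tested: 12 rose and 3 fell, with a median of 0.49. Ncbp1, a nuclear cap-binding protein, rose by 0.88, whereas the poly(A)-binding protein gene Pabpc4 changed by -1.17 and Aimp2, a scaffold of the synthetase complex, by -1.97. The tested genes of the 2 upstream pathways had counts near those shares, and much of each list was not tested. Of 35 listed genes of ATF4 and its targets in the amino acid response, 19 were tested, and Atf4 itself was not among them. Of the 19, 11 rose and 7 fell, with a median of 0.54. Slc3a2, a chain of amino acid transporters, rose by 1.33 and Chac1, which breaks down glutathione, by 3.30. The transcription factor gene Atf5 changed by -1.46. Of 34 listed genes of the mTORC1 pathway, 16 were tested: 9 rose and 6 fell, with a median of 0.37. Pdcd4, an inhibitor of eIF4A, rose by 1.71, while Ddit4l and Akt1s1, both negative regulators, changed by -2.43 and -0.65. Of 18 listed mitochondrial translation factors 4 were tested: Mtif2 rose by 0.47, and Gfm1 and Gfm2 changed by -0.65 and -1.45.

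The second comparison, M+NSPCC1 against Model, asks what the extract changed. No member passed, and none of all 7638 genes did (0%), by the edgeR test. DESeq2 called 16 genes higher (0.205%) and 60 lower (0.771%), none of them a member. At an unadjusted p under 0.05, 1 member was higher (Mars) and 1 lower (Eif5b), 1 in 68 each way, against 2.09% of all genes higher and 4.48% lower. For no member did the libraries of the groups separate, against 1.3% of all genes with every M+NSPCC1 library above every Model library and 2.89% with every one below. The median log2 fold change over the members was -0.004 and over all genes 0.005. The intervals were narrow: for 62 of the 68 the 95% interval of the fold lay within 1.5-fold in either direction (91.2%, against 54.7% of all genes), and for 63 within 2-fold.

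By role, the medians in that comparison were 0.00 for eIF2 with eIF2B, -0.04 for eIF3, 0.00 for eIF4, 0.04 for the other initiation factors, 0.02 for elongation and release, -0.05 for the cytoplasmic synthetases and 0.13 for the mitochondrial ones. Eif5b, the subunit-joining GTPase, stood at 172.2, 183.8, 191.6 and 184.6 CPM in M+NSPCC1, a difference from Model of -0.20 ± 0.08 (SE, adjusted p = 0.684). Cars stood at 132.6, 140.7, 151.8 and 141.5 (-0.17 ± 0.10, adjusted p = 0.861) and Vars at 134.0, 134.3, 124.2 and 151.6 (-0.19 ± 0.12, adjusted p = 0.874), both within the range of the Model libraries. Mars had the largest difference, 2.24 ± 0.70 (adjusted p = 0.573), or 2.84 without Model library 1, at levels of at most 7.334 CPM. Eef1a2 differed by 0.52 ± 0.30 (adjusted p = 0.859) beside a median of 0.56 for the 18 muscle markers, none of which passed, and Eif1b by 0.18 ± 0.11 (adjusted p = 0.867). Among abundant factors the differences were small: Eef1a1 differed by -0.01 with a 95% interval from -0.24 to 0.21, Eef2 by -0.03 (-0.24 to 0.19), Eif4e by -0.03 (-0.17 to 0.11) and Eif2s1 by -0.04 (-0.28 to 0.21). The members' libraries were also more alike in M+NSPCC1: the median SD of log2 CPM was 0.08, against 0.20 in Model and 0.11 in Ctrl, and over all genes above 10 CPM it was 0.145, 0.242 and 0.147 in the same order.

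The third comparison, M+NSPCC1 against Ctrl, asks how far the extract-treated skin stood from control skin. It shares its Ctrl libraries with the first, so its values are given beside those and not as further evidence. Here 56 members rose and 7 fell, with 50.1% of all genes higher, 43.1% lower and 93.2% in either direction, and the 7 that fell were again Mars, Eef1a2, Eif2ak2, Eif1, Eif4a2, Eif4e3 and Eif1b. Every M+NSPCC1 library lay above every Ctrl library for 56 members (47.4% of all genes) and below for 7 (42.5%). The median was 0.53 over the members and 0.27 over all genes. The eIF2 and eIF2B role, with Eif2a and Eif2d, stood at a median of 0.74 with all 10 risen. eIF3 stood at 0.58 with all 12 risen, and the cytoplasmic synthetases at 0.56 with 10 risen. Eif3e overlapped Ctrl, and it did not pass with DESeq2 size factors or with DESeq2 (0.19, adjusted p = 0.069). Eif2ak2 stood at 10.18, 7.139, 4.554 and 3.995 CPM (-0.92 ± 0.38, adjusted p = 0.036), just clear of Ctrl. It did not pass without Ctrl library 2 or 3 or M+NSPCC1 library 2, 3 or 4 (-0.97 to -0.75, adjusted p from 0.0548 to 0.0964). All 3 mitochondrial synthetases rose: Rars2 by 0.64, Hars2 by 1.336 (adjusted p = 0.0286) and Yars2 by 0.35 (adjusted p = 0.0475). Hars2 stood between 9.233 and 12.47 CPM, above every Ctrl library, but its difference from Model, 0.62 ± 0.51, did not pass (adjusted p = 0.931), nor did that of Yars2, 0.13 ± 0.15 (adjusted p = 0.961). Hars2 did not pass without Ctrl library 1, 3 or 4 or M+NSPCC1 library 1 or 3 (1.03 to 1.305, adjusted p from 0.0544 to 0.0696). Yars2 did not pass without Ctrl library 1, 2 or 4 or any 1 of the M+NSPCC1 libraries (0.29 to 0.37, adjusted p from 0.0578 to 0.113). Eif5 and Eif4g1, which had risen in Model, were at 0.11 and 0.22 here without passing. Their differences from Model, -0.11 ± 0.09 (adjusted p = 0.928) and -0.09 ± 0.12 (adjusted p = 0.976), did not pass either. Against Ctrl both passed with whole-library depth and in every limma setting.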

How the data were processed

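RNA from 12 skin libraries was measured. The deposited tables give, per transcript row, estimated counts and FPKM made by the authors; per the submitters' processing notes, HISAT2 2.2.1, RSEM 1.3.1, DESeq2 1.34.0 and the mm10 build were used, whose roles, like the selection of rows, the sources used here do not give. A row carries a gene number and symbol only. The 10720 rows were summed by gene number to 7902 genes and the sums rounded. For the members, 7 had more than 1 row and 33 had sums that were not whole (within 0.011 per row). The members, roles and lists were chosen with earlier results of these data known. All 12 libraries entered one edgeR 4.0.16 quasi-likelihood fit (R 4.3.3, TMM factors, filterByExpr, 1 coefficient per group), with p-values adjusted by Benjamini-Hochberg over 7638 genes and a threshold of 0.05. CPM values use the same factors. The pipeline was tested on simulated data in which most genes were unchanged. In these data most genes differed from Ctrl, so that test does not cover the scaling. Alternatives were DESeq2 1.42.0, its size factors, whole-library depth, other filters, the 8 libraries compared, a replicate block, limma 3.58.1 on log2(FPKM + 1) and log2(FPKM + 0.1), single transcripts, and leaving out each library. The count over members with whole sums was added after seeing the data. Members named with full values were the 2 with the smallest p in each role and direction in Model against Ctrl, the 3 in each direction in M+NSPCC1 against Model, and Eef1a1, Eef1a2, Eef2, Eif4e and Eif2s1. Other members whose library values are printed (Kars, Hars2, Yars2) were chosen after their values were seen. Promoter windows and gene names came from RefSeq tables of GRCm38.p6, in which all 69 members were found.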

Additional observations from a re-analysis of the deposited data

Results flagged for a closer look

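Each group of 4 libraries was searched, for the 23 members named with full values, for a library standing far from the rest (a gap above Dixon's critical value for 4 libraries). This marked 3 of 69 groups, and chance marks about 1 in 20. Eif3l, an eIF3 subunit, was low in M+NSPCC1 library 1, at 333.1 CPM against 363.6 to 367.5 in the others, still above every Ctrl library. Eif5b, the subunit-joining GTPase, was low in Ctrl library 1, at 115.4 CPM against 131.7 to 134.6, and its rise in Model stayed between 0.67 and 0.78 with any 1 library left out. Vars, the valyl-tRNA synthetase, was low in Model library 3, at 119.6 CPM against 163.9 to 170.2, the library that was also lowest of its group for most risen members.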

How the results depend on the processing

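The 63 members that passed in Model against Ctrl became 55 with DESeq2 size factors (48 higher and 7 lower), 56 with DESeq2 (49 and 7), 64 with whole-library depth, 65 with limma and 60 to 63 with any 1 library left out. No passing member changed sign. With DESeq2 size factors the members lost were Eef1d, Eef1e1, Eif3e, Eif4e, Eif4g1, Eif4g2, Eif4h and Eif5. Limma gained Eif4e2 and Yars2, and whole-library depth gained Yars2. In M+NSPCC1 against Ctrl the 63 became 55 with DESeq2 size factors and 57 with DESeq2. There the size factors lost Eef1d, Eef1e1, Eif3e, Eif4e, Eif4g2, Eif4h, Hars2 and Yars2. Leaving out 1 library in that comparison gave 60 to 64 members. In M+NSPCC1 against Model every alternative gave 0. Over the 36 tested members with whole sums, a smaller set by construction, 34 passed in Model against Ctrl and 35 in M+NSPCC1 against Ctrl. With the replicate number as a block, 61 members passed in Model against Ctrl, Eef1e1 and Eif5 being lost, and 61 in M+NSPCC1 against Ctrl. The numbers showed no sign of pairing: same-numbered libraries had correlations of their deviations from -0.162 to 0.119. Libraries with different numbers had -0.153 to 0.188. With 4 libraries per group, these values cannot exclude a pairing. Medians of roles, less that of all genes, moved by more than the spread with limma on FPKM: without a filter, eIF3 went to 0.475 in Model against Ctrl and 0.408 in M+NSPCC1 against Ctrl, eIF4 to 0.209 and 0.205, the other initiation factors to 0.192 and 0.212, and elongation and release in Model against Ctrl to 0.249. With the filter eIF4 went to 0.132 and 0.137, and with a pseudocount of 0.1 to 0.094 in M+NSPCC1 against Ctrl. Without Model library 2 the elongation and release median in M+NSPCC1 against Model was 0.1, against 0.015 with it, in a range of -0.064 to 0.1 over the libraries. The cause of these shifts was not tested. The tables are a selection of genes in which nearly all differ between Ctrl and the treated groups, so absolute levels depend on the scaling, and members with few reads in the treated groups (Mars, Eif2ak2) or in every group (Kars, Hars2) carry wide intervals.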
